A study of Saccharomyces cerevisiae with 112 samples.

Results

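Budding yeast carrying an epitope tag on the silencing protein Sir3 was compared with its untagged parent during exit from stationary phase. The series holds RNA-seq libraries of 8 strains at 7 times with 2 replicates each, and the comparison uses 12 of them: strain Sir3_3xHA at 30 min, 90 min and 1 population doubling after release, with 2 libraries at each time, and strain wt1 at the same times, also with 2 each. The 12 libraries are all those with these strain and time labels. Values of the other times, of the second wild type wt2 and of the related strain Sir3_3xT7 are given only where they bear on a result.

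The parent wt1 is a MATa strain of the S288C background (NKI12318; his3d200, leu2d0, lys2d0, met15d0, trp1d63, ura3d0) with bar1::HisG, a HIS3 marker and the estradiol-dependent recombinase CRE_EBD78 driven by the GPD promoter. Sir3_3xHA carries all of these and, in addition, a tag-switch cassette at the C-terminus of Sir3, in which a 3xHA tag flanked by loxP sites precedes 3xT7. Reads on BAR1 were found in both strains although the labels give it as disrupted, and its levels are given with the a-specific genes. Sir3_3xHA was isolated ahead of any estradiol-induced switch, and the labels call it a hypomorph of Sir3. Sir3_3xT7 is the same strain after the switch. Cells of both strains grew in YPD for 72 h at 30 °C to saturation, were released into fresh medium and were flash frozen. Their total RNA received fission yeast total RNA, 1 part to 10 by mass, before poly(A) selection and sequencing. Separate cultures are not named for the replicates in the labels. The p-values therefore measure only the spread between libraries, which may be technical, and that spread was estimated over the libraries of all 8 strains, not the 12 alone.

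Sir3 works in a complex with Sir2 and Sir4 that spreads along chromatin from silencers and telomeres and keeps the genes there off. In a MATa cell the complex silences HML, which holds a copy of the alpha mating-type genes, and HMR, which holds a copy of the a genes. If both sets of mating-type genes are on in a haploid cell, the alpha2 protein represses the a-specific genes and the a1-alpha2 heterodimer represses the haploid-specific genes, among them those of the pheromone pathway, as in an a/alpha diploid. Genes within several kilobases of the telomeres, such as members of the COS family, are the other well-known targets of Sir silencing.

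Each deposited value is the median coverage across a coding sequence and is therefore per base. Values still fell with coding length in all 12 libraries, with slopes from -0.30 to -0.69 (log2 per log2). Levels of different genes can therefore be compared only roughly. Reads on a gene are given here as the depth at its median base, not as a count of all its reads. A gene at 0 reads may thus still have reads on part of its sequence. A level is given here as a multiple of the median gene, which is the median over the genes tested in the same library. A difference is Sir3_3xHA minus wt1 on the scale log2(value + 0.03), with the median gene of every library set to 0. The pseudocount of 0.03 makes a difference understate the change of low genes, and because the libraries were centred after it was added, low genes also carry the shift between libraries. LEU2, with 0 reads in all 12 libraries, thus has a difference of -0.36 at 30 min, -0.41 at 90 min and 0.50 at 1 doubling. Where it matters, values are also given with each library divided by its median gene before the pseudocount, an alternative added after the data were seen. The median gene was covered by 18 to 33 reads in the replicate 1 libraries and by 69 to 107 in those of replicate 2, and 5342 to 5900 genes were above 0. In bulk RNA, fewer cells that express a gene and less RNA in each cell cannot be told apart. The value that stands for coverage of 0 was set in a different manner in replicate 1 and replicate 2, so the replicates also differ in processing. In replicate 1 each library had its own value, and in replicate 2 the libraries of a strain shared a value. Whether same-numbered libraries of the strains were processed together is not known. Libraries are matched here by time and replicate number. The 5567 genes with enough coverage were tested with limma, with Benjamini-Hochberg adjustment over all of them. Called genes are those whose adjusted p was under 0.05 and whose log2 difference was at least 1 in size.

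Over the mean of the 3 times, 2 genes were called higher in Sir3_3xHA and 0 lower, which is 0.0359% of the genes tested in limma's fit of the series means. At an unadjusted p under 0.05 there were 29 higher and 18 lower. Both called genes lie next to a chromosome end. COS12, a member of the telomere-proximal COS family of membrane proteins, was higher by 4.11 ± 0.42 (log2 ± SE, limma adjusted p = 0.00241), in 6 of 6 matched pairs of libraries. YIR042C, an uncharacterized gene, was higher by 2.39 ± 0.31 (adjusted p = 0.0158), again in 6 of 6 pairs. Without replicate 2 of wt1 the count was 0, with COS12 at 3.75 (adjusted p = 0.0588) and YIR042C at 2.08 (0.377), and without replicate 2 of Sir3_3xHA it was 1 higher and 3 lower, YIR042C no longer among them (0.101). The 4 series of the strains fitted alone gave 0 calls, with COS12 at an adjusted p of 0.0732.

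In the wt1 libraries, COS12 was at 0 and 0.0105 times the median gene at 30 min, at 0.0909 and 0.029 at 90 min and at 0.0488 and 0.0561 at 1 doubling (replicate 1, then replicate 2). In the Sir3_3xHA libraries it was at 1.09 and 0.769, at 1.87 and 1.72, and at 0.778 and 1.69. Every COS12 level in Sir3_3xHA lay above every level in wt1, and COS12 was thus near the level of a median gene in the tagged strain and close to undetected in the parent. Summed over the 3 times, the depth on COS12 was 408 reads in Sir3_3xHA and 13 in wt1. After dividing by the depth of the median gene the ratio was 36.2. A 95% exact interval that treats these depths as counts ran from 20.9 to 68.5. Depth at the median base is not a count of independent reads, so such intervals do not measure counting error. COS genes resemble each other in sequence, and how reads shared between copies were counted is not given in the sources used here.

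COS12 was called at each time by limma with Benjamini-Hochberg adjustment, by 4.10 ± 0.52 at 30 min (adjusted p = 4.38e-07), by 4.34 ± 0.52 at 90 min (adjusted p = 7.50e-08) and by 3.91 ± 0.52 at 1 doubling (adjusted p = 1.94e-06). Within replicate 1 the COS12 difference was 3.95, 3.72 and 3.35, and within replicate 2 it was 4.26, 4.95 and 4.46. The 2 replicates gave the same direction at all 3 times.

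YIR042C was detected in both strains. Its wt1 levels were 0.148 and 0.179 times the median gene at 30 min, 0.121 and 0.145 at 90 min, and 0.146 and 0.028 at 1 doubling. In Sir3_3xHA they were 0.913 and 1.27, 0.711 and 1.31, and 0.333 and 0.51. The YIR042C groups did not overlap at any of the 3 times. The gene was called at 30 min (2.39 ± 0.41, limma adjusted p = 3.46e-04), at 90 min (2.52 ± 0.41, adjusted p = 1.39e-04) and at 1 doubling (2.26 ± 0.41, adjusted p = 0.00168). At 1 doubling the YIR042C difference was 1.10 within replicate 1 and 3.42 within replicate 2, and leaving out replicate 2 of Sir3_3xHA or of wt1 ended that call (adjusted p = 0.414 and 0.999).

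YGL262W, an uncharacterized gene and the next gene inward from COS12 on the left arm of chromosome VII in the R64 annotation, had a difference of 2.83 ± 0.47 over the mean of the times (limma adjusted p = 0.107). With libraries divided by the median gene first it was called there (2.86, adjusted p = 0.00934). Its levels in wt1 were 0.037 and 0.0211 times the median gene at 30 min, 0.0606 and 0 at 90 min, and 0.0488 and 0 at 1 doubling. In Sir3_3xHA the YGL262W levels were 1.54 and 0.747, 0.4 and 0.361, and 0.0556 and 0.153. The YGL262W level in Sir3_3xHA was lower at each later time, and at each time both its libraries were above both of wt1. It was called at 30 min (3.88 ± 0.61, adjusted p = 8.04e-05) and at 90 min (2.87 ± 0.61, adjusted p = 0.0211), and its 1.75 ± 0.61 at 1 doubling had an adjusted p of 1.00. The 90 min call of YGL262W ended without replicate 1 of Sir3_3xHA (adjusted p = 0.383) and without replicate 2 of wt1 (1.00). At 1 doubling YGL262W rests on a summed depth of 13 reads in Sir3_3xHA and 1 in wt1. The ratio was 17.2 (95% exact interval 2.58 to 730, with depths treated as counts). In replicate 1 at that time the levels of 0.0556 and 0.0488 are a depth of 1 read in each strain, and only the scaling separated them.

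**Figure D1:**
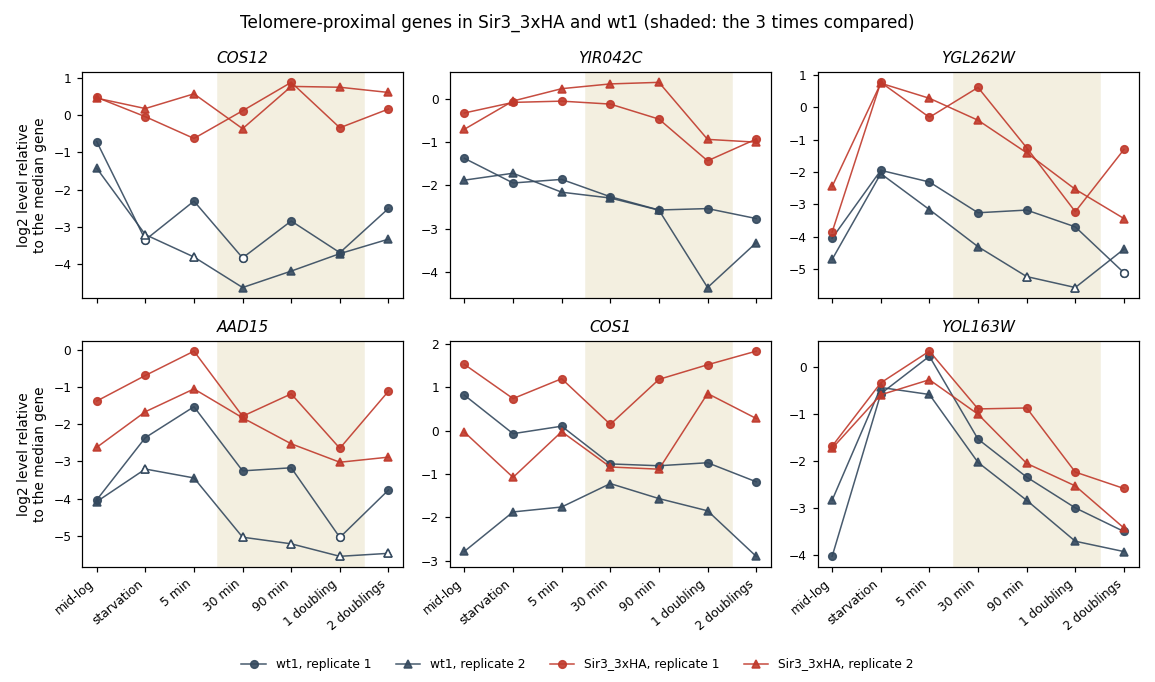
Level of 6 telomere-proximal genes in each library of Sir3_3xHA (red) and wt1 (dark blue) at 7 times, as log2 of the level relative to the median gene; circles are replicate 1, triangles replicate 2, open symbols libraries with 0 reads on the gene, and the shaded band marks the 3 times compared. COS12, YIR042C and YGL262W lie higher in both Sir3_3xHA libraries than in both wt1 libraries across the shaded band, and a library at 0 reads is drawn at a value set by the pseudocount and its scaling.

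AAD15, which codes for a putative aryl-alcohol dehydrogenase near the left end of chromosome XV, had a difference of 2.39 ± 0.51 over the mean of the times and was not called (limma adjusted p = 0.695). AAD15 was at 0 to 0.0606 times the median gene in the 6 wt1 libraries and at 0.102 to 0.422 in the 6 Sir3_3xHA libraries. The groups did not overlap at any of the 3 times, but these levels are a summed depth of 60 reads in Sir3_3xHA and 3 in wt1. The ratio was 23.0, with a 95% exact interval from 7.52 to 115 when depths are treated as counts. AAD genes are a family with similar copies, so the source of these few reads is uncertain.

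Of the 124 tested genes within 20 kb of a chromosome end, COS12 and YIR042C were called over the mean of the times, with 0 called lower, beside 2 of all 5567. The list's median difference was 0.16, with 0.07 within replicate 1 and 0.26 within replicate 2, against -0.00 over all genes tested. Among the genes of the list, 56 were higher and 14 lower within both replicates. Over all 5567 genes, 1152 were higher and 1295 lower within both. At 30 min the median of the 124 was 0.14 and turned to -0.16 without replicate 2 of wt1. At 1 doubling it was 0.22, but 0.07 with libraries divided by the median gene first and -0.04 with a stricter filter on low values, and on the spike-in scale, which moves every gene by -0.50 at that time, it was -0.28.

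By distance, the 14 tested genes within 5 kb of an end had a median of 0.35 for both replicates together, 0.62 within replicate 1 and 0.68 within replicate 2, a bin of few genes. The 27 genes between 5 and 10 kb had 0.26, with 0.30 within each replicate, and the 83 between 10 and 20 kb had 0.10, with -0.01 and 0.24. Beyond 80 kb the 4399 genes had a median of -0.01, with -0.03 and -0.01. Within 10 kb the differences varied from gene to gene: COS10 was at -0.39 and PHO11, an acid phosphatase gene, at 0.02 over the mean of the times, while YFL066C was at 1.27 and GEX1, a glutathione exchanger gene, at 1.23, none of these 4 called. Distances come from R64, which may differ from the build behind the table.

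**Figure D2:**
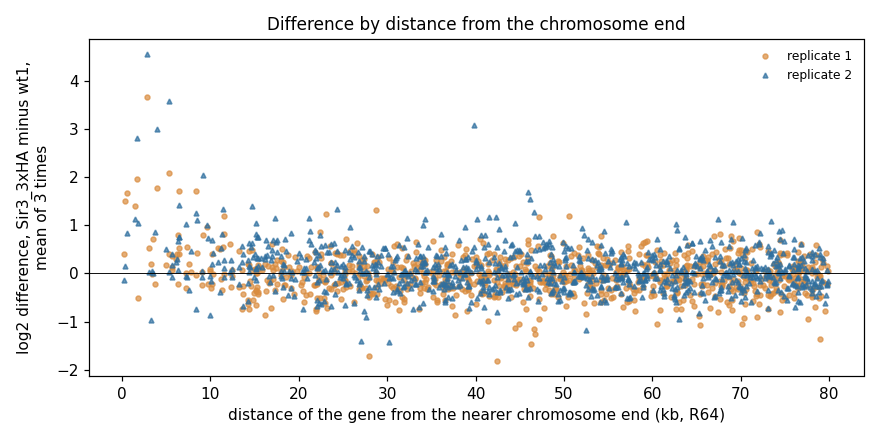
Difference Sir3_3xHA minus wt1 (log2, mean of the 3 times) of each tested gene against its distance from the nearer chromosome end in kb, drawn apart for replicate 1 (circles) and replicate 2 (triangles), up to 80 kb. Most of the highest points drawn lie within 10 kb of an end, with COS12 highest in both replicates (3.67 and 4.56). Between 10 and 80 kb the points of both replicates scatter around 0. A single point near 40 kb, COF1 within replicate 2 (3.08), lies far above the rest. Genes over 80 kb from an end are not drawn, and 6 of these had a difference of at least 1 within both replicates.

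Of the 7 tested COS genes, COS12 was called higher at every time and none was called lower. Of all 5567 genes, 3, 4 and 2 were called higher and 0, 2 and 0 lower at 30 min, 90 min and 1 doubling. The COS median was 0.65 at 30 min, 0.71 at 90 min and 0.90 at 1 doubling, against -0.04, -0.00 and 0.03 over all genes tested, and with a pseudocount of 0.3 the 90 min median turned to -0.14. COS1 was higher within both replicates at each time, by 0.91 and 0.38, by 1.99 and 0.68, and by 2.26 and 2.71, and was not called over the mean of the times (1.49, limma adjusted p = 1.00). COS10 differed in sign between the replicates at 30 min, with 0.57 within replicate 1 and -0.89 within replicate 2. The neighbours inward of YGL262W on chromosome VII had smaller differences that were not called: 0.74 for PAU11, a seripauperin gene, 0.77 for YPS5, a yapsin protease gene, and 1.42 for YGL258W-A.

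At 30 min, 3 genes were called higher and 0 lower (0.0539% of the genes tested): COS12, YGL262W and YIR042C. At an unadjusted p under 0.05 there were 107 higher and 108 lower. The next genes by p were not called. ESBP6, a monocarboxylate permease homologue, was at 1.49 ± 0.36 (limma adjusted p = 0.145), and PTC7, a mitochondrial protein phosphatase gene, at -1.23 ± 0.32 (adjusted p = 0.282). Also among these were YNL115C (1.81), YOR062C (1.73), YLF2 (-1.40) and CDC55 (1.29), the last a regulatory subunit of protein phosphatase 2A. Without replicate 2 of Sir3_3xHA the 30 min count was 8 higher and 8 lower. With the 12 libraries fitted alone it was 0, and COS12 had an adjusted p of 0.0741 in that fit.

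At 90 min the mating-type regulated genes joined the calls: 4 genes were called higher and 2 lower, 0.108% of the genes tested (0.0719% higher and 0.0359% lower). Besides COS12, YIR042C and YGL262W the higher gene was MF(ALPHA)1, which codes for the alpha-factor pheromone made by alpha cells. The lower genes were STE6, the exporter of the a-factor pheromone and an a-specific gene, and GPA1, the G protein alpha subunit of the pheromone pathway and a haploid-specific gene. At an unadjusted p under 0.05 there were 47 higher and 58 lower. The 90 min count was 2 (COS12 and YIR042C) without replicate 1 of Sir3_3xHA or without replicate 2 of wt1, and 17 (5 higher, 12 lower) without replicate 2 of Sir3_3xHA.

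MF(ALPHA)1 was lower at each later time in wt1, from 0.407 and 0.179 times the median gene at 30 min to 0.121 and 0.0725 at 90 min and 0.0488 and 0.00935 at 1 doubling. In Sir3_3xHA it stood at 2.87 and 2 at 30 min, at 2.13 and 1.15 at 90 min and at 0.0556 and 0.0382 at 1 doubling. Both tagged libraries were thus above both wt1 libraries at 30 and 90 min, and at 1 doubling MF(ALPHA)1 was low in all 4. The difference was 2.95 ± 0.72 at 30 min (limma adjusted p = 0.145) and 3.60 ± 0.72 at 90 min (adjusted p = 0.0103), where it was 3.64 within replicate 1 and 3.56 within replicate 2. At starvation, before release, MF(ALPHA)1 was at 0.8 and 0.439 in Sir3_3xHA and at 0.786 and 1.07 in wt1, so that the groups overlapped. At 30 min its adjusted p was 0.0466 with a pseudocount of 0.3. The 90 min call ended without replicate 1 of Sir3_3xHA (adjusted p = 1.00) and without replicate 2 of wt1 (0.697).

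The other alpha-specific genes had smaller differences. At 90 min MF(ALPHA)2, the minor alpha-factor gene, was at 1.87, SAG1, the alpha-agglutinin, at 1.15, and STE3, the receptor for a-factor, at 0.48, and none of the 3 was called. All 4 alpha-specific genes were higher within both replicates at 90 min, as were 1281 of all 5567 genes, and their median was 0.75 at 30 min, 1.51 at 90 min and 0.70 at 1 doubling. STE3 levels overlapped between the strains at 90 min, with 0.8 and 0.292 in Sir3_3xHA and 0.636 and 0.174 in wt1.

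STE6 was at 1.87 and 2.19 times the median gene in wt1 at 30 min, at 2.76 and 2.23 at 90 min and at 4.20 and 3.36 at 1 doubling. In Sir3_3xHA it was at 0.348 and 1.42, at 0.311 and 0.903, and at 3.81 and 2.33. Replicate 1 of the tagged strain was the lowest of the 4 libraries at 30 and 90 min, replicate 2 lay between it and wt1, and at 1 doubling the strains overlapped. The difference at 90 min was -2.14 ± 0.46 (limma adjusted p = 0.0246), with -3.0 within replicate 1 and -1.28 within replicate 2. The STE6 call ended without replicate 1 of Sir3_3xHA, which left -1.42 (adjusted p = 1.00), without replicate 1 of wt1 (0.435) and without replicate 2 of wt1 (0.479), and on the spike-in scale it was at -1.73 (1.00). The STE6 call also ended with the stricter filter (0.0626), quantile normalization (0.0766) and the coding length trend removed (0.119).

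GPA1 was at 5.56 and 4.32 times the median gene in wt1 at 30 min, at 5.09 and 4.03 at 90 min and at 6.24 and 3.26 at 1 doubling. In Sir3_3xHA the GPA1 levels were 2.57 and 3.12, 0.711 and 1.67, and 3.44 and 2.96. Both tagged libraries lay below both wt1 libraries at 30 and 90 min and overlapped with them at 1 doubling. The difference at 90 min was -2.0 ± 0.45 (limma adjusted p = 0.0329), with -2.76 within replicate 1 and -1.25 within replicate 2. The GPA1 call, too, ended without replicate 1 of Sir3_3xHA (adjusted p = 1.00), without replicate 1 of wt1 (0.435) and without replicate 2 of wt1 (0.479). It also ended with no filter (0.0566), the stricter filter (0.0626), quantile normalization (0.0623), libraries divided by the median gene first (0.0600) and on the spike-in scale (1.00).

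The a-specific genes, which make MATa cells secrete a-factor and sense alpha-factor, divided the 2 replicates of Sir3_3xHA. STE2, the alpha-factor receptor, was at 6.70 and 9.40 times the median gene in wt1 at 30 min and at 10.4 and 12.1 at 90 min. In replicate 1 of Sir3_3xHA STE2 was at 0.522 and 0.667 at these times. In replicate 2 it was at 8.32 at both. STE2 was thus far below wt1 in replicate 1 of the tagged strain and within a factor of 1.5 of its wt1 partner in replicate 2.

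MFA2, an a-factor gene, followed the same course: 1.54 and 1.04 times the median gene in replicate 1 of Sir3_3xHA at 30 and 90 min, beside 27.9 and 31.1 in replicate 1 of wt1. In replicate 2 the MFA2 levels were 23.9 and 35.1 in Sir3_3xHA and 42.0 and 61.0 in wt1. At 1 doubling MFA2 was at 35.7 and 77.8 in Sir3_3xHA and at 54.8 and 49.6 in wt1, and the groups overlapped. MFA1, the other a-factor gene, was at 1.00 and 0.8 in replicate 1 of Sir3_3xHA at 30 and 90 min, where wt1 had 15.1 and 16.3. In replicate 2 MFA1 was at 18.6 and 26.2, where wt1 had 13.5 and 25.7. The differences over both replicates were -2.45 for MFA2 and -1.86 for STE2 at 30 min, neither called (limma adjusted p = 0.945 and 0.611). Without replicate 2 of Sir3_3xHA they were -4.42 and -3.81, and without replicate 1 STE2 turned to 0.09. Each of these rests on a single Sir3_3xHA library at that time. Wherever a replicate is left out, the lone library is assumed to vary like those of the other groups, so that an adjusted p then describes that library more than the strain.

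Of the 7 a-specific genes tested, 1 was called lower at 90 min (STE6), 0 at 30 min and 0 at 1 doubling. Of all 5567 genes, 2 were called lower at 90 min and 0 at 30 min and 1 doubling. The median over all genes was -0.04 at 30 min, -0.00 at 90 min and 0.03 at 1 doubling. The a-specific median difference was -1.60 at 30 min, -2.12 at 90 min and 0.00 at 1 doubling. Within replicate 1 the a-specific median was -3.54, -3.41 and -0.31, and within replicate 2 it was -0.18, 0.03 and 0.92. AGA2, a subunit of a-agglutinin, had opposite signs in the replicates at 30 min, with -4.28 within replicate 1 and 1.07 within replicate 2. BAR1, the protease that degrades alpha-factor, is counted among these genes. Both strains carry bar1::HisG per the labels, yet BAR1 was at 1.64 to 3.19 times the median gene in Sir3_3xHA and at 1.01 to 4.41 in wt1, and its difference over the mean of the times was -0.09. Without replicate 1 of Sir3_3xHA the a-specific median over the mean of the times turned from -1.31 to 0.02.

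The haploid-specific genes, which serve mating in both a and alpha cells, had medians below 0 at each time. Of 11 tested, 1 was called lower at 90 min (GPA1), beside 2 of all 5567 genes, and none at the other times. The haploid-specific median was -0.62 at 30 min, -1.11 at 90 min and -0.27 at 1 doubling. It was -1.02, -2.28 and -0.26 within replicate 1 and -0.10, -0.43 and -0.22 within replicate 2. At 90 min 9 of the 11 were lower within both replicates, as were 1462 of all 5567 genes. FAR1, the cell-cycle arrest factor of the pheromone response, was at 0.0889 and 0.556 times the median gene in Sir3_3xHA at 90 min and at 1.12 and 1.10 in wt1. STE4, the G protein beta subunit, was at 0.244 and 2.28 beside 2.58 and 3.01, and FUS3, the mitogen-activated kinase of mating, at 0.4 and 1.40 beside 3.97 and 2.31. For FAR1, STE4 and FUS3 the tagged strain was lower in both replicates at 90 min, by much more in replicate 1.

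**Figure D3:**
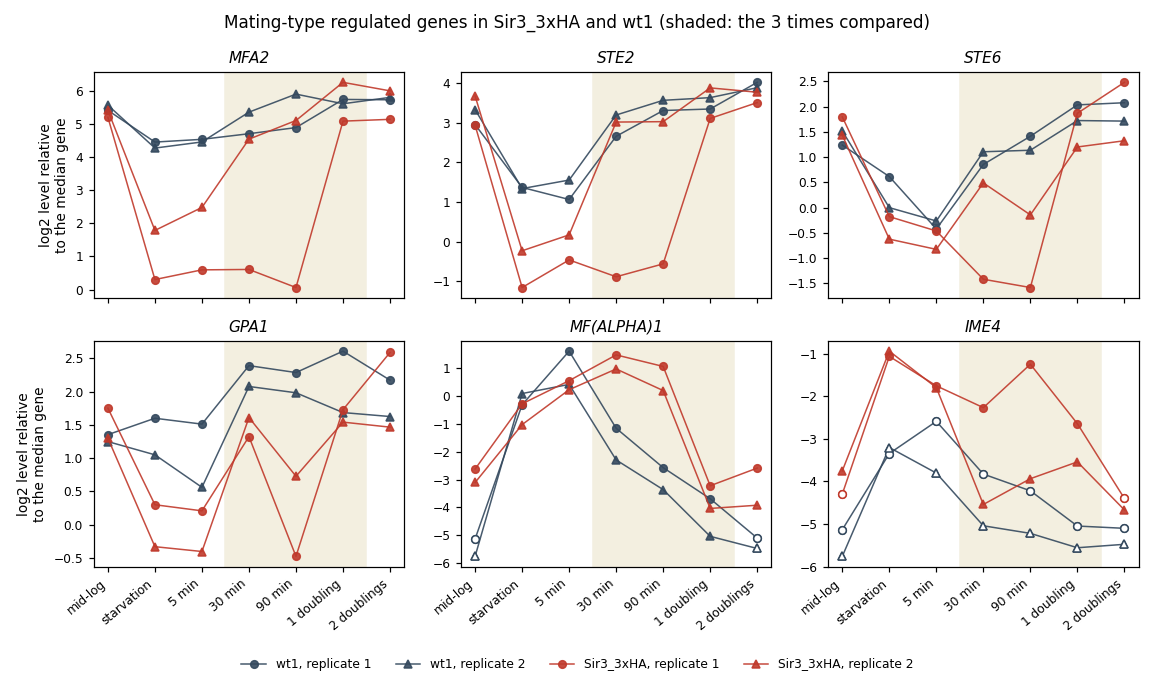
Level of 6 mating-type regulated genes in each library of Sir3_3xHA (red) and wt1 (dark blue) at 7 times, as log2 of the level relative to the median gene; circles are replicate 1, triangles replicate 2, open symbols libraries with 0 reads on the gene, and the shaded band marks the 3 times compared. MFA2 and STE2 stay low through 90 min in replicate 1 of Sir3_3xHA and return earlier in replicate 2, and at 1 doubling all 4 libraries are close; IME4 in wt1 is at 0 reads throughout, so its line there shows only the pseudocount and the scaling.

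These genes were low in the tagged strain before release as well, in a contrast at starvation that was added after the data were seen. All 7 a-specific genes and all 11 haploid-specific genes tested had differences below 0 there, as had 2679 of all 5567 genes. The a-specific and haploid-specific medians were -1.95 and -1.17 beside 0.02 over all genes tested. No gene of these lists was called. MFA2 was at 1.27 and 3.69 times the median gene at starvation in Sir3_3xHA and at 24.1 and 21.4 in wt1. STE2 was at 0.367 and 0.837 beside 2.75 and 2.71. Both replicates of Sir3_3xHA were thus below both wt1 libraries at starvation for MFA2 and STE2. Replicate 1 was already the lower of the Sir3_3xHA replicates there, and they lay further apart at 30 and 90 min. The starvation contrast called 1 gene, COS12 (3.34, limma adjusted p = 1.36e-04), which is 0.018% of the genes tested.

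IME4 is an RNA methyltransferase gene needed for meiosis and kept low in haploid cells by an antisense transcript. Its depth at the median base was 0 in all 6 wt1 libraries and at all 4 other times in wt1. In Sir3_3xHA, IME4 had 4 reads and 1 read at 30 min, 9 and 3 at 90 min, and 2 and 5 at 1 doubling. Every tagged library was above every wt1 library, though by few reads. With the summed wt1 depth set to an assumed floor of 3 reads, the ratio over the 3 times was 9.22, which is not a strict lower bound. At starvation IME4 had 12 and 23 reads in Sir3_3xHA. Whether the counting separated sense from antisense reads is not given in the sources used here. IME4 was not called at any time, and its highest limma difference among the 3 times was 2.21 at 1 doubling (adjusted p = 0.463). With libraries divided by the median gene first, IME4 was called at 90 min (2.55, limma adjusted p = 2.02e-04) and at 1 doubling (1.94, adjusted p = 0.0330).

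Of 16 meiosis genes tested none was called, and their median was 0.24 over the mean of the times, with IME4 at 1.79 and ZIP1, a synaptonemal complex gene, at -0.50. None of 14 pheromone-response genes was called either. Their median was -0.07, with -0.42 within replicate 1 and 0.33 within replicate 2. KAR4, a transcription factor of karyogamy, was at -1.71 within replicate 1 and 0.47 within replicate 2.

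At 1 doubling the mating-type regulated genes were no longer among the calls. COS12 and YIR042C were called higher and 0 genes lower (0.0359% of the genes tested), with 41 higher and 12 lower at an unadjusted p under 0.05. After them came IME4, AAD15 (2.47 ± 0.71), the sporulation gene SPO20 (1.66), YGL258W-A (1.72), the ribosomal protein gene RPL37B (2.24), YFL012W (1.92) and YGR045C (-1.62). The limma adjusted p was 0.463 for IME4 and 1.00 for the others. Several rest on few reads: SPO20, YGL258W-A and YFL012W had 1 read each in replicate 1 of Sir3_3xHA and 0 in replicate 1 of wt1, and IME4 and AAD15 had 2 and 0. With libraries divided by the median gene first, the difference was 2.19 for AAD15, 1.38 for SPO20, 1.48 for YGL258W-A and 1.68 for YFL012W. RPL37B was at 0.778 and 0.446 times the median gene in Sir3_3xHA and at 0.0976 and 0.112 in wt1, and has a near-identical copy. The count was 1 without replicate 2 of Sir3_3xHA or of wt1. On the spike-in scale it was 0, with COS12 at 3.40 (adjusted p = 0.0660).

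The limma F test of whether the difference varied over the 3 times called 0 of 5567 genes (0%), and 54 had an unadjusted p under 0.05. Without replicate 2 of Sir3_3xHA it called 1. The difference at 90 min in STE6 and GPA1 and its smaller size at 1 doubling were therefore not shown to differ between times.

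Few genes had a large difference in both replicates. Across the 5567 genes, which are not independent replicates, the differences within replicate 1 and within replicate 2 had a Pearson r of 0.12 at 30 min, 0.05 at 90 min, -0.10 at 1 doubling and -0.03 for the mean of the times. A difference of at least 1 in the mean of the times within both replicates was found for 15 genes higher (0.269%) and 0 lower. Those 15 were COS12, YGL262W, YIR042C, MF(ALPHA)1, AAD15, IME4, YLR415C, COS1, TEF2, YLR255C, YEL045C, YLR406C-A, YFL066C, YNL114C and YEL074W. In R64, 6 of them were placed within 20 kb of a chromosome end, beside 124 of all 5567 genes tested. YEL045C, YNL114C and YEL074W had no R64 distance and could not be placed. Within replicate 1 alone 65 genes reached 1 and 64 reached -1, and within replicate 2 alone 130 and 20.

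**Figure D4:**
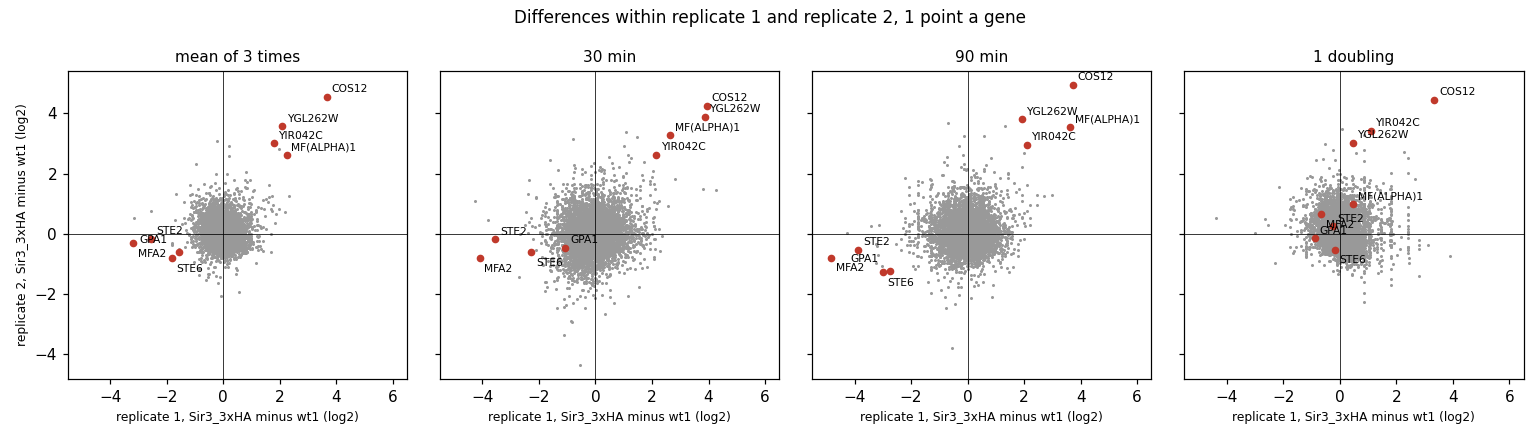
Difference Sir3_3xHA minus wt1 (log2) within replicate 1 (horizontal) and within replicate 2 (vertical) for 5567 genes, 1 point a gene, for the mean of the 3 times and for each time, with 8 genes named in red. COS12 lies at the upper right in every panel, MFA2 and STE2 lie far to the left at 30 and 90 min with little downward shift, and the cloud of all genes shows no common direction (r from -0.10 to 0.12).

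Groups that do not overlap were common at single times and rare over all 3. The levels of all Sir3_3xHA libraries were above those of wt1 for 10.3% of genes at 30 min, 9.90% at 90 min and 9.02% at 1 doubling, and below them for 12.8%, 9.77% and 7.40%. For 21 genes (0.377%) the tagged strain was higher without overlap at each of the 3 times, and for 25 (0.449%) it was lower. Of the 21, 5 were placed within 20 kb of a chromosome end (COS12, YIR042C, YGL262W, AAD15 and YOL163W), and of the 25, none. Of all 5567 genes tested, 124 were placed there. YBR076C-A, among the 21, had no R64 distance. The 25 included SUT2 (-0.91 over the mean of the times), SCM4 (-0.83) and the ribosome assembly gene TMA23 (-0.81), none of them called.

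No SIR gene was called at any time or over the mean of the times. SIR3 was at 0.0435 and 0.231 times the median gene in Sir3_3xHA at 30 min, at 0.267 and 0.236 at 90 min and at 0.222 and 0.255 at 1 doubling. In wt1 SIR3 was at 0.0741 and 0.211, 0.182 and 0.29, and 0.244 and 0.421, and the groups overlapped at each of the 3 times. The difference over the mean of the times was -0.20 ± 0.41 for SIR3, -0.10 ± 0.27 for SIR1, 0.11 ± 0.37 for SIR2 and -0.26 ± 0.32 for SIR4 (limma adjusted p = 1.00 each). In replicate 1 at 30 min SIR3 rests on 1 read in Sir3_3xHA and 2 in wt1, so that a change there was not detectable at this depth.

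The silent cassettes could not be read directly. HMLALPHA1 and HMLALPHA2 are listed at 0 in every library of the series. MATALPHA2, whose sequence is repeated at HML, was above 0 in 48 libraries of the series and was too low to be tested. It was at 0 in the 6 replicate 1 libraries of the comparison. In replicate 2 MATALPHA2 was at 0.033, 0 and 0.0637 times the median gene in Sir3_3xHA at the 3 times and at 0.0474, 0.029 and 0.0234 in wt1, none over 5 reads, with neither strain higher at all 3 times. HMRA1, whose sequence is shared with the active a1 gene of MATa, was at 1.83 to 8.98 times the median gene in Sir3_3xHA and at 2.22 to 12.1 in wt1 over the 3 times, with a difference of -0.37 ± 0.64 (adjusted p = 1.00). Of the auxotrophic marker genes named in the genotype, LEU2, LYS2, MET17 (met15) and URA3 were at 0 reads in all 12 libraries. HIS3 and TRP1 gave reads in both strains, with differences of -0.01 and -0.03.

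Against Sir3_3xT7, the strain after the tag switch, the limma fit of the series means called 0 genes (0% of 5567), with 33 higher and 35 lower at an unadjusted p under 0.05, and without replicate 1 of Sir3_3xHA it called 3. COS12 was at 0.778 and 1.69 times the median gene in Sir3_3xHA at 1 doubling and at 2.42 and 1.37 in Sir3_3xT7, and so was high in both tagged strains. YIR042C was at 0.333 and 0.51 beside 0.947 and 0.573. The difference between the tagged strains over the mean of the times was not called for either gene.

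The tagged strains did differ at 1 doubling, in a contrast by time that was added after the data were seen. There 8 genes were called higher in Sir3_3xHA and 0 lower (0.144% of the genes tested): FAR1 (3.65 ± 0.49, limma adjusted p = 2.00e-06), FUS3 (3.22 ± 0.56, 5.14e-04), GPA1 (3.02 ± 0.45, 1.87e-05), STE2 (2.75 ± 0.59, 0.0202), HO (2.71 ± 0.63, 0.0407), AGA1 (2.68 ± 0.62, 0.0407), FUS1 (2.67 ± 0.45, 2.35e-04) and STE6 (2.09 ± 0.46, 0.0286). FAR1, FUS3, GPA1 and HO, the mating-type switching endonuclease, are haploid-specific, STE2 and STE6 are a-specific, and AGA1 and FUS1 are agglutinin and cell fusion genes induced by pheromone. GPA1 was at 3.44 and 2.96 times the median gene in Sir3_3xHA at this time, at 0.368 and 0.347 in Sir3_3xT7 and at 6.24 and 3.26 in wt1. STE2 was at 9.06 and 15.0, at 1.68 and 1.71, and at 10.4 and 12.6. At this time Sir3_3xHA was thus close to wt1, and both Sir3_3xT7 libraries were lower than all 4 others for GPA1 and STE2.

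At 30 min 1 gene was called lower, YML003W (0.018%, -2.29 ± 0.46, limma adjusted p = 0.0283). It was no longer called without replicate 1 of Sir3_3xHA, where 2 other genes were, and 5 were called without replicate 2. At 90 min the count was 0, with 84 genes higher and 128 lower at an unadjusted p under 0.05, and it was 2 without replicate 1 and 4 without replicate 2 of Sir3_3xHA. The a-specific median against Sir3_3xT7 was 0.94 at 30 min, 0.83 at 90 min and 2.75 at 1 doubling, and the haploid-specific median 1.01, 0.72 and 1.71. Replicate 2 of Sir3_3xT7 at 90 min had 87.8% of its low values on whole multiples of its smallest value, where every other library had 100%. The effect of that library on the 90 min and mean contrasts was not tested. The 1 doubling count was 3 on the spike-in scale, and it was 6 without replicate 1 and 8 without replicate 2 of Sir3_3xHA. The libraries of Sir3_3xHA are shared between these contrasts and those against wt1.

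Against wt2, a wild type made from JOY1 (a BY4741 parent, MATa, with ura3D, leu2D, his3D, met15D and bar1D:HIS5), 2 genes were called higher in Sir3_3xHA and 3 lower (0.0898% of 5567). COS12 was higher by 3.89 ± 0.42 (limma adjusted p = 0.00148) and so was called against both wild types. Of the other 4, 3 are genes that the genotype labels name: BAR1 had 0 reads in all 6 wt2 libraries, LYS2 was at 0 reads in Sir3_3xHA and at 0.571 to 1.45 times the median gene in wt2, and TRP1 was at a difference of -3.39 ± 0.43 (adjusted p = 0.00538). The last was SNL1 (-3.25 ± 0.42, adjusted p = 0.00555), the neighbour of BAR1 in R64. YIR042C, which was called against wt1, was not called against wt2, nor was YGL262W. The count was 9 (2 higher, 7 lower) without replicate 2 of Sir3_3xHA and 3 without its replicate 1.

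Across growth and metabolism no list had a called gene at any time. The 103 ribosomal protein genes had a median of 0.38 at 1 doubling, with -0.23 within replicate 1 and 1.04 within replicate 2. In replicate 2 at that time the slope on coding length was -0.30 in wt1 and -0.57 in Sir3_3xHA. Its part in this median was not tested. The 68 ribosome biogenesis genes had a median of -0.17 at 90 min, with -0.24 and -0.16, and 37 of them were lower within both replicates, beside the 1462 of all 5567 genes. The 32 Gcn4 targets of amino acid synthesis had a median of 0.30 at 90 min (0.07 and 0.52), and 21 were higher within both, beside the 1281 of all genes. Among them ARG1, the arginosuccinate synthetase gene, was at 1.09 over the mean of the times, not called. The 47 stress and heat shock genes had a median of 0.18 over the mean of the times (0.04 and 0.22), and the 25 genes of the iron regulon -0.26 (-0.12 and -0.42).

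**Figure D5:**
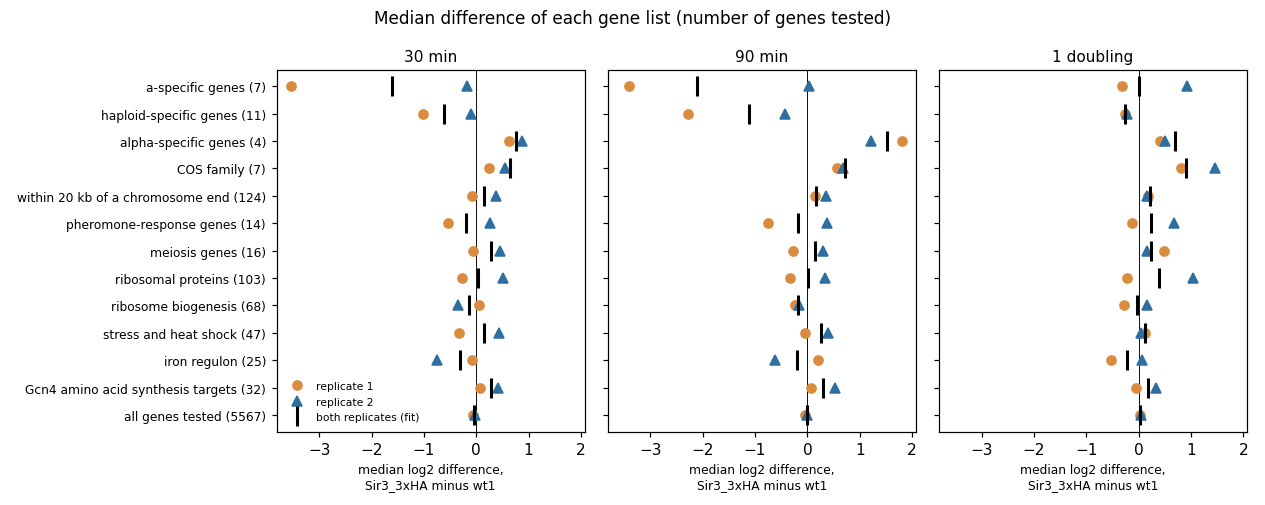
Median difference Sir3_3xHA minus wt1 (log2) of 12 gene lists and of all genes tested at 30 min, 90 min and 1 doubling; circles are replicate 1, triangles replicate 2, black bars the fit of both, and the number of genes tested is in brackets. The a-specific and haploid-specific lists stand far to the left in replicate 1 at 30 and 90 min (-3.54 and -1.02, then -3.41 and -2.28) and closer to 0 in replicate 2 (-0.18 and -0.10, then 0.03 and -0.43), and at 1 doubling the COS list is to the right in both (0.81 and 1.46).

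The fission yeast RNA also gave a scale for the median gene itself, which bears on mRNA per mass of total RNA and not per cell. The difference Sir3_3xHA minus wt1 was 0.80 and -0.09 (log2, replicates 1 and 2) at 30 min, 0.69 and 0.12 at 90 min and -0.86 and -0.15 at 1 doubling. The mean over the times was 0.09, with an exact permutation p of 0.843 (two-sided, strain labels permuted within times, 6 libraries against 6, smallest possible p 0.00926). The scale thus shifted all differences by 0.36 at 30 min, 0.41 at 90 min and -0.50 at 1 doubling, and the differences above are relative to that shift.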

How the data were processed

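RNA-seq libraries of 2 strains at 3 times (12 libraries) were compared within a table of 112, each of whose columns matched a sample. The values the authors deposited are log2 of the spike-in-scaled median coverage over each coding sequence, per the file headers and the labels. CASAVA 1.7.0 and the fission yeast build ASM294v2 come from the submitters' processing notes; the sources used here give no aligner, counter or S. cerevisiae build. Values were taken out of log2, the value shared by all undetected genes was set to 0, and log2(value + 0.03) was centred on each library's median gene. The 5567 of 6319 genes above 0.15 in at least 4 of the 112 libraries were tested. Reads, as depth at the median base, were recovered from each library's smallest step.

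Tests used limma 3.58.1 in R 4.3.3, two-sided. The mean over times was fitted on the means of 16 series (8 residual degrees of freedom). Single times and the F test used all 112 libraries (56) and treat libraries of a series as independent. The scripts were tested on simulated data. Tables and plots used Python 3.11.15, pandas 2.3.3, numpy 2.4.6, scipy 1.17.1 and matplotlib 3.10.9. R64 gave names, coding lengths and distances.

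The libraries, gene lists and tests were chosen with earlier results of these data known. Named genes were the called ones, or the 10 with the smallest p where under 5 were called, the SIR and marker genes, HMRA1, and the called or 2 most different members of each list; others were chosen after their values were seen. Same-numbered libraries of the strains deviated together (correlations 0.565, 0.609 and 0.595 across genes at the 3 times). Replicate 1 and replicate 2 also differ in depth and processing, so the correlations do not show that the numbers pair cultures.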

Additional observations from a re-analysis of the deposited data

Results flagged for a closer look

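At times outside the comparison, 4 genes that were called higher after release, and IME4, which was not, also lay above both wt1 libraries in both Sir3_3xHA libraries. The lower of the Sir3_3xHA levels of COS12 was 1.40 times the median gene at mid-log, 0.967 at starvation, 0.609 at 5 min and 1.13 at 2 doublings, where the higher wt1 levels were 0.6, 0, 0.0435 and 0.152. For YIR042C it was 0.586, 0.933, 0.957 and 0.489, beside 0.367, 0.218, 0.164 and 0.121 in wt1. For YGL262W it was 1.73 at starvation, 0.783 at 5 min and 0.0761 at 2 doublings, beside 0.179, 0.0437 and 0.0263 in wt1. MF(ALPHA)1 was above both wt1 libraries at mid-log (0.0541) and at 2 doublings (0.0489), with wt1 at 0 reads at both times. In Sir3_3xHA it rests on 3 and 6 reads at mid-log and on 1 and 4.5 at 2 doublings. At 5 min the MF(ALPHA)1 groups overlapped, with 1.52 and 1.18 in Sir3_3xHA and 3.48 and 1.37 in wt1. IME4 was above both wt1 libraries at starvation (0.4) and 5 min (0.217), again with wt1 at 0 reads. Which of these differ from the times compared was not tested.

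Some differences had opposite signs at different times in both replicates. PTC7 had differences below 0 at 30 and 90 min and above 0 at 1 doubling, with changes of the difference of -1.33 and -0.45 (30 min and 90 min minus 1 doubling). YLF2 did likewise, with -1.83 and -0.64. YFL012W had differences below 0 at 30 min and above 0 later, with -0.84 (30 minus 90 min) and -2.17 (30 min minus 1 doubling). In the limma F test over the 3 times the unadjusted p was 0.0153 for PTC7, 0.00575 for YLF2 and 0.0751 for YFL012W, and the adjusted p was 1.00 for each.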

How the results depend on the processing

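The alternatives left every sign of COS12, YIR042C, YGL262W and AAD15 as it was, while counts of called genes were small and moved easily. Over the mean of the times (2 genes called), the count was 0 with a pseudocount of 0.3, with a stricter filter on low values (which drops the genes that are low in wt1) and with the 4 series alone, 1 on the spike-in scale, 10 when single libraries were fitted, and 0 to 4 when 1 series was left out. At 30 min (3 called) it was 0 with the stricter filter and with the 12 libraries alone, 5 when libraries were divided by the median gene before the pseudocount, 5 without libraries of low depth, and 4 to 16 when 1 series was left out. At 90 min (6 called) it was 0 with the stricter filter, 2 on the spike-in scale, 1 with the 12 libraries alone, and 2 to 17. At 1 doubling (2 called) it was 1 with a pseudocount of 0.3 or quantile normalization, 0 with the stricter filter, the spike-in scale or the 12 libraries alone, and 1 to 2. The F test gave 0 to 1 when 1 series was left out.

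Against Sir3_3xT7 the mean gave 0 to 3 calls when 1 series was left out, 30 min gave 2 to 5, and 0 with a pseudocount of 0.3, the spike-in scale or the coding length trend removed. At 90 min it gave 2 to 4, and at 1 doubling (8 called) 6 to 8, and 3 on the spike-in scale. Against wt2 (5 called) it gave 3 on the spike-in scale and 3 to 9. The log2 difference in the median gene ranged from -0.37 to 0.54. The replicate block treats same-numbered libraries as matched. With it the counts were 2 for the mean, 3 at 30 min, 7 at 90 min, 2 at 1 doubling and 0 for the F test. Against wt2 the count was 7 and against Sir3_3xT7 at 1 doubling 9, and no call of these results was lost.

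The sign changed for genes with small or few-read differences. Over the mean of the times HIS3 was at 0.0161 with a pseudocount of 0.3, 0.00035 with the stricter filter, 0.0733 on the spike-in scale and 0.0184 with the length trend removed, and TRP1 at 0.0887 with that pseudocount, at 0.0530 on the spike-in scale and at 0.20 with the value for zero coverage kept as deposited. That last setting put IME4 at -0.50 over the mean, -1.24 at 30 min, -0.16 at 90 min and -0.11 at 1 doubling. It places undetected genes at different heights in different libraries. At 1 doubling the spike-in scale, which moves every gene by -0.50 there, gave -0.0357 for AGA2 and -0.0736 for BAR1, and so by its construction turned their small differences. Leaving out 1 series gave, over the mean of the times, -0.37 to 0.17 for SIR1, -0.44 to 0.66 for SIR2, -0.52 to 0.11 for SIR3, -0.61 to 0.0841 for SIR4, -1.01 to 0.28 for HMRA1, -0.23 to 0.20 for HIS3, -0.37 to 0.31 for TRP1, -0.34 to 0.16 for BAR1, -2.73 to 0.0233 for STE2, -1.68 to 0.43 for KAR4 and -0.42 to 1.22 for PRM5. At 30 min it gave -3.81 to 0.0903 for STE2, -0.12 to 1.75 for MF(ALPHA)2, -2.50 to 0.12 for KAR4 and -0.11 to 2.17 for IME4. At 90 min it gave -2.18 to 0.36 for KAR4 and -1.56 to 0.10 for FUS1, and at 1 doubling -0.35 to 1.28 for AGA2 and -0.0615 to 0.92 for BAR1. Where no cause is named, the cause was not tested. Of the values for single genes under an alternative, 1105 kept direction and side of the threshold, 74 lost the call, 23 gained it and 38 changed sign. Depth limits the genes that are near 0 in wt1, where replicate 1 often has 0 or 1 read.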
